A study of Homo sapiens with 6 samples.

Results

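Zinc finger transcription factor genes were followed in LNCaP cells, an androgen-sensitive human line of prostate cancer, by 3'READS, which sequences the end of polyadenylated RNA and so records both the level of a gene's RNA and the site at which it ends. Members were the genes whose symbol begins with ZNF, ZKSCAN or ZSCAN and a digit, in the deposited gene table or polyadenylation site table, without antisense genes. The rule used the name alone, set with earlier results of these data known, and it found 152 of 4556 genes. Of the 1944 genes with expression values, 26 were members. Of the 3118 genes with site values, 136 were members, with 197 of 4903 sites. Both tables held 10 of the members. By symbol, 4 members were ZSCAN genes and 0 were ZKSCAN genes.

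All 6 libraries came from LNCaP cells transfected with small interfering RNA at 50 nM, in a repeated silencing, and taken at 48 hours. The siCTRL cells received a scrambled RNA. The siSAM68 cells received RNA against Sam68, an RNA-binding protein encoded by KHDRBS1, and the siXRN2 cells RNA against XRN2, an exonuclease that degrades the RNA left on the polymerase after cleavage. Each group had 2 biological replicates, from a single cell line and with a transient loss of each protein.

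C2H2 zinc finger proteins bind DNA through arrays of short loops, each held by a zinc ion between cysteines and histidines. Many carry a KRAB domain, which recruits the corepressor TRIM28 and through it the histone methyltransferase SETDB1, and many of these silence retroelements. A smaller branch carries a SCAN domain, through which the proteins pair. Their genes form tandem clusters, above all on chromosome 19.

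The proteins of the members fitted the name. Of 148 members with a matched coding transcript, 141 held at least 1 match to the C2H2 finger pattern, with a median of 10 and a range of 0 to 36. Chromosome 19 held 65 of the 136 member genes with sites, against 154 of all 3118, and 11 of the 26 with expression values, against 126 of 1944. Intronic types made up 25.4% of member sites and 17.7% of all sites. The signal AATAAA was given for 54.8% of member sites and 53.5% of all. Transcript GC content had a median of 43.1% in members and 47.1% in all listed genes.

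The control libraries were the shallowest, which bears on the values below. From the RPM steps, the member genes took about 713 and 1378 reads in the siCTRL libraries, 2389 and 2841 in the siSAM68 libraries and 1951 and 5673 in the siXRN2 libraries, of 244708 to 1599559 reads on all listed genes. KHDRBS1 was at 601 and 741 rescaled RPM in the siCTRL libraries, 53.8 and 27.5 after its own silencing, and 895 and 567 in the siXRN2 libraries. XRN2 has no expression value here, so its loss was not analysed here. LNCaP markers were listed for 10 of 13 genes, with a summed level of 2353 to 3370 rescaled RPM by library, and 0 of 17 markers of other cell types were listed. In bulk RNA, fewer cells that express a gene and less RNA per cell cannot be told apart.

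After Sam68 silencing, 16 of the 26 members passed the test (limma adjusted p under 0.05 over all genes), 11 higher and 5 lower. That share is near the background, since 58.8% of all 1938 genes tested were called, 35.3% higher and 23.4% lower. The median log2 difference was 0.49 over members and 0.16 over all genes. After XRN2 silencing, 9 members were called, 7 higher and 2 lower, beside 33.3% of all genes, 21.2% higher and 12.1% lower. The median log2 difference was 0.61 over members and 0.08 over all genes. Groups did not overlap for 21 members in siSAM68, 14 higher and 7 lower (79.7% of all genes, 44.8% higher and 34.9% lower), and for 18 in siXRN2 (65.7% of all genes). Both comparisons use the same siCTRL libraries.

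**Figure D1:**
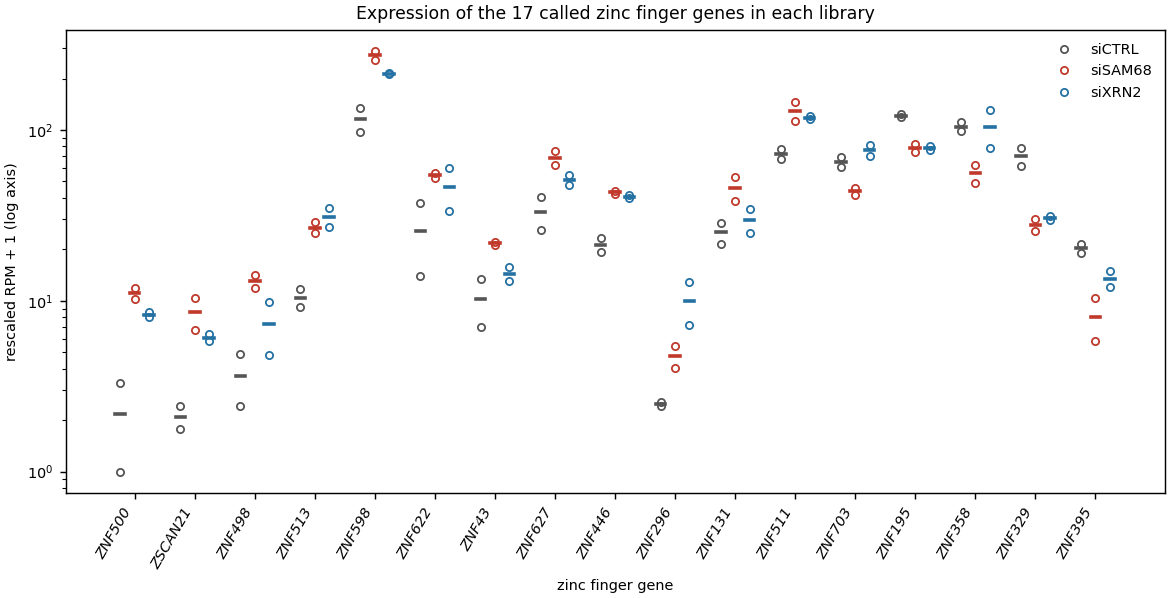
Level of the 17 zinc finger genes called in at least 1 comparison with siCTRL. Each circle is 1 library, each bar the mean of the 2 libraries of a group, and the vertical axis is rescaled RPM + 1 on a log scale. For ZNF598 and ZNF513 all silenced libraries lie above both control libraries, and for ZNF329 all lie below.

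Among the rises were members that act on ribosomes rather than on DNA. ZNF598, a ubiquitin ligase that marks collided ribosomes, was at 95.9 and 133 in the siCTRL libraries, 257 and 288 in the siSAM68 libraries and 214 and 210.2 in the siXRN2 libraries, in rescaled RPM, the unit of all levels here. All 4 silenced libraries were above both control libraries. It rose 2.39-fold in siSAM68 (log2 1.26, SE 0.20, limma adjusted p = 0.00141) and 1.87-fold in siXRN2 (log2 0.90, SE 0.20, limma adjusted p = 0.00967). ZNF622, which takes part in the cytoplasmic maturation of the large ribosomal subunit, was at 36.2 and 13.0 in the siCTRL libraries, 55.3 and 51.2 in the siSAM68 libraries and 32.3 and 58.9 in the siXRN2 libraries. It rose in siSAM68 (log2 1.25, SE 0.40, limma adjusted p = 0.0178), and the siXRN2 libraries overlapped the controls (limma adjusted p = 0.0729).

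Genes of the SCAN branch moved unequally. ZNF24 was at 139 and 181 in the siCTRL libraries, 169 and 162 in the siSAM68 libraries and 124 and 126 in the siXRN2 libraries (limma adjusted p = 0.823 in siSAM68 and 0.193 in siXRN2). ZNF449 was at 18.1 and 19.8 in the siCTRL libraries, 14.5 and 10.2 in the siSAM68 libraries and 12.9 and 10.3 in the siXRN2 libraries, lower in all silenced libraries and called in neither comparison (limma adjusted p = 0.162 in siSAM68 and 0.151 in siXRN2). ZNF500, by contrast, was at 0 and 2.32 in the siCTRL libraries, 10.8 and 9.28 in the siSAM68 libraries and 6.98 and 7.56 in the siXRN2 libraries, and the silenced libraries lay above both controls. The fitted differences were large in siSAM68 (log2 2.60, SE 0.55, limma adjusted p = 0.00466) and siXRN2 (log2 2.18, SE 0.55, limma adjusted p = 0.0144). Only 3 reads in siCTRL lay behind them, and the ratio of read shares was 6.63 (exact 95% counting interval 2.12 to 33.4) and 4.93 (exact 95% counting interval 1.59 to 24.8). These intervals cover counting error only, and PCR copies are not independent molecules.

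ZSCAN21, another SCAN gene, was at 1.41 and 0.773 in the siCTRL libraries, 9.33 and 5.75 in the siSAM68 libraries and 4.78 and 5.36 in the siXRN2 libraries. The groups did not overlap, in siSAM68 (log2 2.01, SE 0.49, limma adjusted p = 0.00679) or in siXRN2 (log2 1.55, SE 0.49, limma adjusted p = 0.0279). With 2 reads in siCTRL, the ratio of read shares was 7.34 (exact 95% counting interval 1.87 to 63.3) and 5.20 (exact 95% counting interval 1.33 to 44.7). ZNF498, now named ZSCAN25, was at 1.41 and 3.87 in the siCTRL libraries, 10.8 and 13.2 in the siSAM68 libraries and 8.82 and 3.85 in the siXRN2 libraries. It rose in siSAM68 (log2 1.92, SE 0.50, limma adjusted p = 0.00818), and 1 siXRN2 library lay inside the control range (limma adjusted p = 0.129). ZNF446, with SCAN and KRAB domains, was at 22.3 and 18.3 in the siCTRL libraries, 41.4 and 42.9 in the siSAM68 libraries and 40.4 and 38.9 in the siXRN2 libraries. It rose in both, in siSAM68 (log2 1.02, SE 0.27, limma adjusted p = 0.0088) and in siXRN2 (log2 0.94, SE 0.27, limma adjusted p = 0.0214).

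Further rises fell outside that branch. ZNF513, a factor linked to retinitis pigmentosa, was at 8.20 and 10.7 in the siCTRL libraries, 23.9 and 27.8 in the siSAM68 libraries and 26.1 and 34.1 in the siXRN2 libraries. The groups did not overlap, and it rose 2.58-fold in siSAM68 (limma adjusted p = 0.00623) and 2.97-fold in siXRN2 (limma adjusted p = 0.00839). ZNF296 was at 1.41 and 1.55 in the siCTRL libraries, 3.04 and 4.45 in the siSAM68 libraries and 6.25 and 11.8 in the siXRN2 libraries. It was called in siXRN2 (log2 1.96, SE 0.50, limma adjusted p = 0.0144) and not in siSAM68 (limma adjusted p = 0.125), on 3 reads in siCTRL, with a siXRN2 ratio of read shares of 6.93 (exact 95% counting interval 2.27 to 34.5). Between the silenced groups ZNF296 did not pass (limma adjusted p = 0.222).

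ZNF511 rose in both comparisons, 1.77-fold in siSAM68 (limma adjusted p = 0.00822) and 1.63-fold in siXRN2 (limma adjusted p = 0.0256). Called in siSAM68 alone were ZNF627 at 2.11-fold (limma adjusted p = 0.00807), the KRAB gene ZNF43 at 2.23-fold (limma adjusted p = 0.0208) and the BTB domain gene ZNF131 at 1.82-fold (limma adjusted p = 0.0279). The siXRN2 libraries of ZNF627, at 46.7 and 53.7, also lay above both controls, at 24.9 and 39.6 (limma adjusted p = 0.0803). Those of ZNF131 overlapped the controls (limma adjusted p = 0.586). ZNF43 was at 12.4 and 6.03 in the siCTRL libraries, 20.2 and 21.1 in the siSAM68 libraries and 12.1 and 14.7 in the siXRN2 libraries, and its siXRN2 libraries overlapped the controls.

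**Figure D2:**
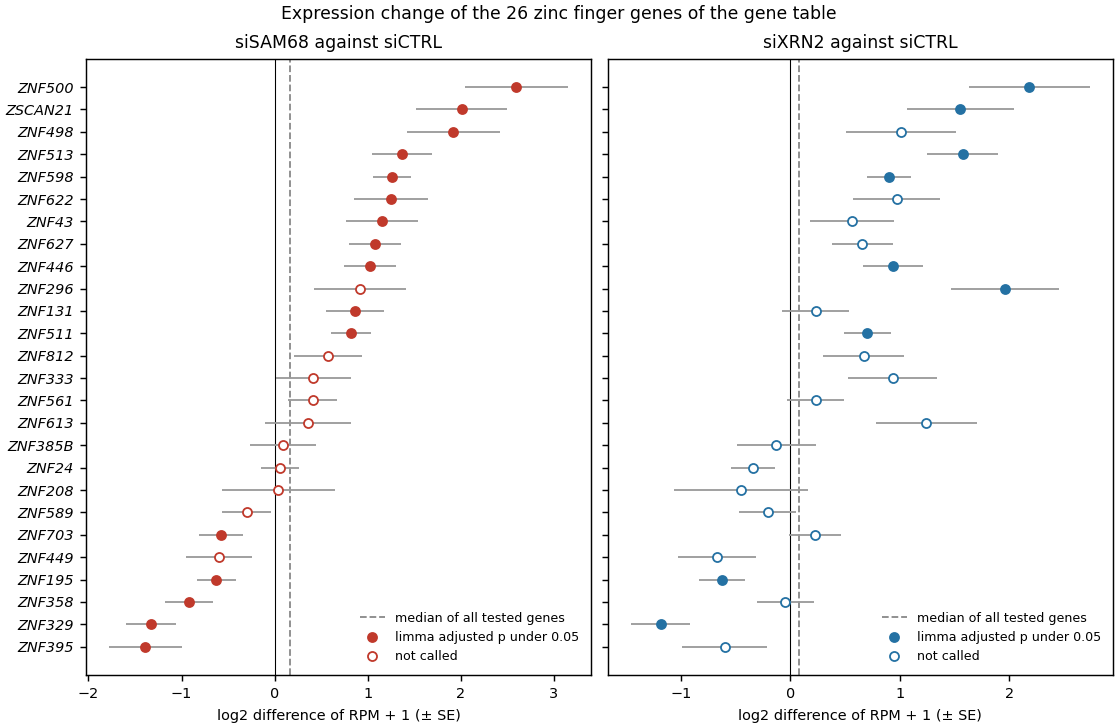
Change of all 26 zinc finger genes with expression values against siCTRL, as the log2 difference of RPM + 1 with its SE. Filled points are called by limma at an adjusted p under 0.05, and the dashed line is the median of all genes, at 0.16 in siSAM68 and 0.08 in siXRN2. Most points lie right of that line in both panels.

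Fewer members fell. ZNF329 was at 77.8 and 60.8 in the siCTRL libraries, 24.7 and 29.1 in the siSAM68 libraries and 30.5 and 28.9 in the siXRN2 libraries. All silenced libraries were below both controls, 2.51-fold in siSAM68 (log2 -1.33, SE 0.27, limma adjusted p = 0.00398) and 2.28-fold in siXRN2 (log2 -1.19, SE 0.27, limma adjusted p = 0.00993). The KRAB gene ZNF195 was at 118 and 122 in the siCTRL libraries, 73.3 and 82.2 in the siSAM68 libraries and 75.7 and 79.5 in the siXRN2 libraries. It fell 1.54-fold in siSAM68 (limma adjusted p = 0.022) and 1.54-fold in siXRN2 (limma adjusted p = 0.0356), again with no overlap.

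The other falls were called in siSAM68 alone. ZNF395, a factor induced by low oxygen, was at 18.1 and 20.6 in the siCTRL libraries, 9.33 and 4.82 in the siSAM68 libraries and 11.0 and 13.9 in the siXRN2 libraries, a fall of 2.62-fold (limma adjusted p = 0.0104). ZNF358 was at 109.7 and 97.3 in the siCTRL libraries, 61.0 and 48.2 in the siSAM68 libraries and 77.2 and 129 in the siXRN2 libraries, a fall of 1.89-fold (limma adjusted p = 0.0109). ZNF703, a corepressor known as an oncogene of luminal breast cancer, was at 68.2 and 60.0 in the siCTRL libraries, 40.8 and 44.7 in the siSAM68 libraries and 80.1 and 69.7 in the siXRN2 libraries, a fall of 1.49-fold close to the threshold (limma adjusted p = 0.0495). The siSAM68 libraries of ZNF358 and ZNF703 also lay below the siXRN2 libraries, and neither passed over all genes (limma adjusted p = 0.0904 for each). Between the silenced groups limma called 0 of 26 members, with 2 at an unadjusted p under 0.05, beside 0.155% of all genes (0.0516% higher and 0.103% lower).

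The remaining 9 members were called in neither comparison with siCTRL. ZNF613 was at 18.1 and 6.03 in the siCTRL libraries, 9.33 and 20.4 in the siSAM68 libraries and 27.6 and 25.3 in the siXRN2 libraries, just short of the threshold in siXRN2 (limma adjusted p = 0.0516). ZNF208 rested on 3 reads in siCTRL, 7 in siSAM68 and 6 in siXRN2, and a change was not detectable at this depth.

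On chromosome 19 the median log2 difference in siSAM68 was 0.42 over 11 members and -0.44 over the 115 other genes, and in siXRN2 0.66 and -0.14. By quartile of GC content, from low to high, the members' medians in siSAM68 were 0.36, 0.25, 1.25 and 0.97, over 5 to 8 members each, and those of all 483 genes of a quartile 0.34, 0.38, 0.23 and -0.40. The part of GC content in the changes was not tested, and no test was made of these medians.

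Many of the expression calls were lost when 1 library was left out. Such fits leave 1 library in a group and fewer degrees of freedom. A lost call therefore does not show that the library decided it. ZNF329, ZNF500 and ZNF598 stayed called in siSAM68 whichever library was left out, and ZNF513 did so in siXRN2. Member calls in siSAM68 numbered 9 without siCTRL replicate 1, 8 without siSAM68 replicate 1 and 6 without siSAM68 replicate 2. In siXRN2 they numbered 6 without siCTRL replicate 1, 6 without siCTRL replicate 2 and 4 without siXRN2 replicate 2. On the deposited RPM with no rescaling limma called 0 members in either comparison, with 3 in siSAM68 and 2 in siXRN2 at an unadjusted p under 0.05. The counts in these fits are of members alone, so they do not show whether members differ from the other genes.

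Usage of a site is the percent of the gene's reads that end there, and 194 of 197 member sites were tested. The table's codes were taken as first (F), middle (M), last (L) or single (S) in a 3' UTR, or intronic (Ic and Is). After Sam68 silencing 42 member sites in 37 genes were called by limma, 28 higher and 14 lower, beside 14.6% of all sites (8.68% higher and 5.96% lower). After XRN2 silencing 19 sites in 18 genes were called, 15 higher and 4 lower, beside 5.19% of all sites (3.79% higher and 1.4% lower). On percent with no log, limma called 20 higher and 22 lower in siSAM68, and 1 higher and 2 lower in siXRN2. Groups did not overlap for 127 member sites in siSAM68, 63 higher and 64 lower (75.5% of all sites, 36.9% higher and 38.6% lower), and for 130 in siXRN2 (70.4% of all sites).

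Zeros carry most of these calls. Of the 28 sites called higher in siSAM68, 19 were at 0 in both siCTRL libraries, and of the 15 in siXRN2, 13 were. Such sites made up 16.5% of member sites and 7.75% of all sites. Of those at 0 in both controls, 59.4% of member sites and 54.4% of all sites were called in siSAM68, and of the others 14.2% and 11.3%. Without the sites at 0 in all libraries of a group, a choice made after seeing the data, limma called 0 of 140 member sites in either comparison. At an unadjusted p under 0.05 were 63 of them in siSAM68 and 44 in siXRN2. Over all 4183 sites left, 1804 in siSAM68 and 1439 in siXRN2 were at that p. The lowest limma adjusted p over all of these was 0.0723 in siSAM68 and 0.0989 in siXRN2. The part of depth in the gains from 0 was not tested, and for genes with no expression value the reads behind usage are unknown.

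**Figure D3:**
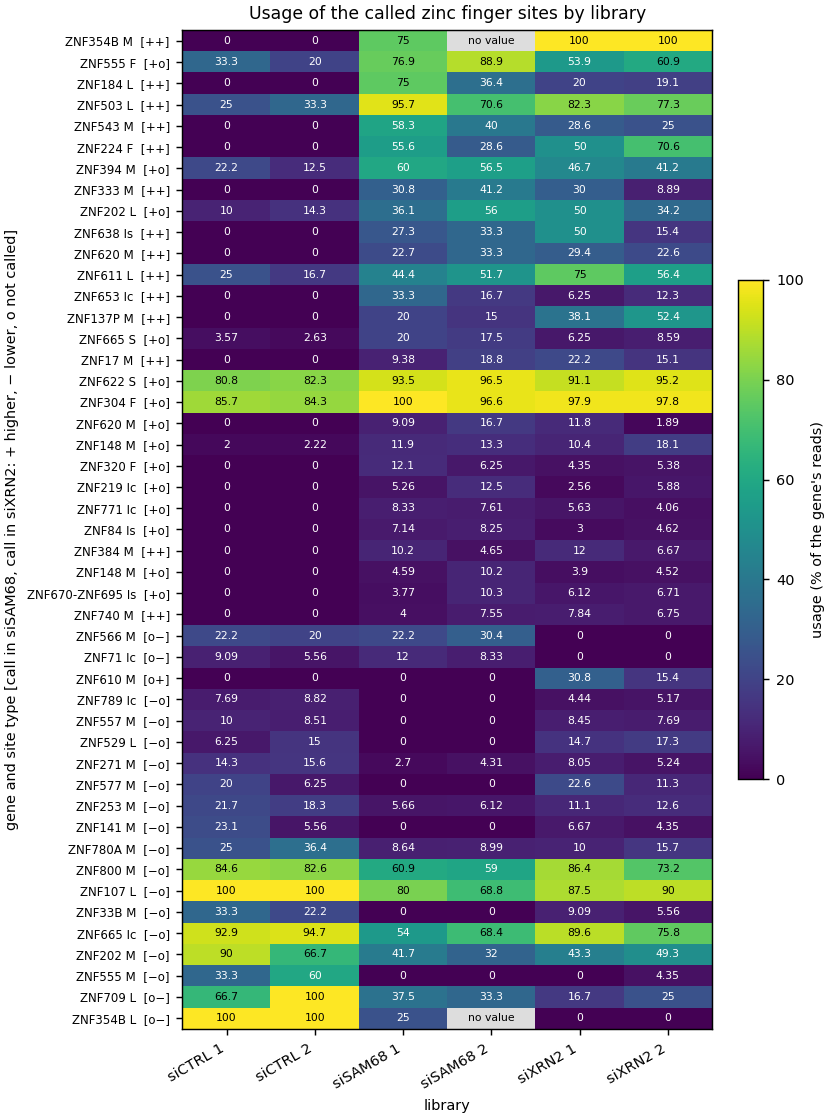
Usage of every member site called in at least 1 comparison with siCTRL, with a line for each site and a column for each library. Colour and number give the percent of the gene's reads, grey marks a missing value, and the signs after the site type give the calls in siSAM68 and siXRN2. Many of the gaining sites are at 0 in both control libraries.

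Where the reads are known, they show how little a 0 says. The KRAB gene ZNF333 used a middle site (hg19 chromosome 19, position 14831776) at 0% in both siCTRL libraries, 30.8% and 41.2% in the siSAM68 libraries and 30% and 8.89% in the siXRN2 libraries. All silenced libraries were above 0, and both comparisons were called (limma adjusted p = 0.02 in siSAM68 and 0.0386 in siXRN2). The gene had about 4 and 6 reads in the siCTRL libraries. With 3 reads taken as the limit for a count of 0, both together allow a usage of up to about 30%. This limit is approximate.

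The signal near the 3' end is shown for called sites of type L or S. Of 8 such sites with the deposited class AATAAA or ATTAAA, 6 had that hexamer in the last 30 bases of the matched GENCODE v29 transcript. Those ends are given 5' to 3' on GRCh38 with the hexamer in capitals, and the hg19 positions of the table were not aligned to them.
ZNF184 (chr6:27450743-27450772, minus strand): aatATTAAAacttactattattcttcttct
ZNF503 (chr10:75397830-75397859, minus strand): tatttgatgtATTAAAgggttttacttctt
ZNF709 (chr19:12461184-12461213, minus strand): gatatATTAAAatattccattgcaattata
ZNF107 (chr7:64711553-64711582, plus strand): gagttctgAATAAAcatttaaaaaatgtta
ZNF622 (chr5:16451519-16451548, minus strand): tctgacctaatAATAAAagttagaaccata
ZNF665 (chr19:53162421-53162450, minus strand): actAATAAAatttgatgtattttataagta

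Last sites of the ATTAAA class moved both ways. The KRAB gene ZNF184 used its last site at 0% in both siCTRL libraries, 75% and 36.4% in the siSAM68 libraries and 20% and 19.1% in the siXRN2 libraries, and both comparisons were called (limma adjusted p = 0.0091 in siSAM68 and 0.0207 in siXRN2). ZNF503, a corepressor related to ZNF703, used its last site at 25% and 33.3% in the siCTRL libraries, 95.7% and 70.6% in the siSAM68 libraries and 82.3% and 77.3% in the siXRN2 libraries. No library was at 0, the silenced libraries lay above the controls by a mean of 54.0 and 50.6 percentage points, and both comparisons were called (limma adjusted p = 0.0253 in siSAM68 and 0.0361 in siXRN2). ZNF709 lost usage of its last site, at 66.7% and 100% in the siCTRL libraries, 37.5% and 33.3% in the siSAM68 libraries and 16.7% and 25% in the siXRN2 libraries, and was called in siXRN2 (limma adjusted p = 0.0572 in siSAM68 and 0.0386 in siXRN2).

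Sites of the AATAAA class also moved both ways. ZNF107 used its last site at 100% in both siCTRL libraries, 80% and 68.8% in the siSAM68 libraries and 87.5% and 90% in the siXRN2 libraries, a loss called in siSAM68 (limma adjusted p = 0.0389 in siSAM68 and 0.173 in siXRN2). ZNF622, whose level rose in siSAM68, used its single site at 80.8% and 82.3% in the siCTRL libraries, 93.5% and 96.5% in the siSAM68 libraries and 91.1% and 95.2% in the siXRN2 libraries, a gain called there (limma adjusted p = 0.0433 in siSAM68 and 0.0713 in siXRN2). ZNF611 used its last site at 25% and 16.7% in the siCTRL libraries, 44.4% and 51.7% in the siSAM68 libraries and 75% and 56.4% in the siXRN2 libraries, a gain called in both (limma adjusted p = 0.0496 in siSAM68 and 0.043 in siXRN2).

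ZNF665 had an intronic and a 3' UTR site that changed in opposite directions. The intronic site (Ic; hg19 chromosome 19, position 53682182) was at 92.9% and 94.7% in the siCTRL libraries, 54% and 68.4% in the siSAM68 libraries and 89.6% and 75.8% in the siXRN2 libraries. The single 3' UTR site was at 3.57% and 2.63% in the siCTRL libraries, 20% and 17.5% in the siSAM68 libraries and 6.25% and 8.59% in the siXRN2 libraries. Both were called in siSAM68 alone (limma adjusted p = 0.0496 and 0.0325). Sites of a gene share its reads, so such opposite changes are not independent.

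First and middle sites gained as well. The KRAB gene ZNF354B used a middle site at 0% in both siCTRL libraries, 75% in siSAM68 replicate 1 and 100% in both siXRN2 libraries, with no value in siSAM68 replicate 2. Its last site, 154 bases further, fell from 100% in both siCTRL libraries to 25% in siSAM68 replicate 1 and 0% in both siXRN2 libraries. The fit used the single siSAM68 value, which is assumed to vary like the other groups, and those are at the same value in both libraries. It called the middle site in both comparisons (limma adjusted p = 0.0121 in siSAM68 and 0.0118 in siXRN2) and the last site in siXRN2 (limma adjusted p = 0.0123).

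ZNF224, a KRAB repressor of the aldolase A gene, used its first site at 0% in both siCTRL libraries, 55.6% and 28.6% in the siSAM68 libraries and 50% and 70.6% in the siXRN2 libraries (limma adjusted p = 0.00999 in siSAM68 and 0.0123 in siXRN2). ZNF543 used a middle site at 0% in both siCTRL libraries, 58.3% and 40% in the siSAM68 libraries and 28.6% and 25% in the siXRN2 libraries (limma adjusted p = 0.00809 in siSAM68 and 0.0123 in siXRN2). At both sites every silenced library was above the controls, which were at 0. ZNF555 used its first site at 33.3% and 20% in the siCTRL libraries, 76.9% and 88.9% in the siSAM68 libraries and 53.9% and 60.9% in the siXRN2 libraries, with siSAM68 called (limma adjusted p = 0.0309 in siSAM68 and 0.071 in siXRN2), and no library was at 0. A middle site of ZNF555, 1222 bases further, was at 33.3% and 60% in the siCTRL libraries, 0% in both siSAM68 libraries and 0% and 4.35% in the siXRN2 libraries, a loss called in siSAM68 (limma adjusted p = 0.0322 in siSAM68 and 0.0639 in siXRN2).

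Other losses named in siSAM68 were those of ZNF202, ZNF800 and ZNF33B, each at a middle site. ZNF202, a SCAN and KRAB repressor of lipid metabolism genes, used one at 90% and 66.7% in the siCTRL libraries, 41.7% and 32% in the siSAM68 libraries and 43.3% and 49.3% in the siXRN2 libraries (limma adjusted p = 0.0426 in siSAM68 and 0.0911 in siXRN2), while its last site gained (limma adjusted p = 0.0422 in siSAM68). ZNF800 used one at 84.6% and 82.6% in the siCTRL libraries, 60.9% and 59.0% in the siSAM68 libraries and 86.4% and 73.2% in the siXRN2 libraries (limma adjusted p = 0.0421 in siSAM68 and 0.565 in siXRN2). ZNF33B used one at 33.3% and 22.2% in the siCTRL libraries, 0% in both siSAM68 libraries and 9.09% and 5.56% in the siXRN2 libraries (limma adjusted p = 0.0129 in siSAM68 and 0.0794 in siXRN2). In all 3 genes both siSAM68 libraries were below both controls.

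Other changes named in siXRN2 were at middle and intronic sites. ZNF566 used a middle site at 22.2% and 20% in the siCTRL libraries, 22.2% and 30.4% in the siSAM68 libraries and 0% in both siXRN2 libraries, a loss called in siXRN2 (limma adjusted p = 0.538 in siSAM68 and 0.0124 in siXRN2). ZNF71 used an intronic site at 9.09% and 5.56% in the siCTRL libraries, 12% and 8.33% in the siSAM68 libraries and 0% in both siXRN2 libraries, also a loss called there (limma adjusted p = 0.478 in siSAM68 and 0.0401 in siXRN2). For both, the siXRN2 libraries alone were at 0. ZNF638, whose protein silences unintegrated retroviral DNA, used an intronic site with no recognised signal at 0% in both siCTRL libraries, 27.3% and 33.3% in the siSAM68 libraries and 50% and 15.4% in the siXRN2 libraries (limma adjusted p = 0.0204 in siSAM68 and 0.0311 in siXRN2). The pseudogene ZNF137P used a middle site at 0% in both siCTRL libraries, 20% and 15% in the siSAM68 libraries and 38.1% and 52.4% in the siXRN2 libraries (limma adjusted p = 0.0121 in siSAM68 and 0.0118 in siXRN2). Near-identical copies can split reads, so values of pseudogenes and close paralogs are uncertain, as are those of ZNF695 and ZNF816, which share a site with a readthrough entry.

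ZSCAN genes with site values did not pass. ZSCAN16 used its single site at 42.7% and 51.2% in the siCTRL libraries, 61.3% and 70.3% in the siSAM68 libraries and 45.7% and 55% in the siXRN2 libraries (limma adjusted p = 0.0813 in siSAM68 and 0.644 in siXRN2). ZSCAN30 used its last site at 57.1% and 82.8% in the siCTRL libraries, 72% and 83.9% in the siSAM68 libraries and 62.5% and 41.7% in the siXRN2 libraries (limma adjusted p = 0.612 in siSAM68 and 0.267 in siXRN2). ZSCAN30 has other listed sites. The authors' signed score in siXRN2, undefined in the sources used here, was 0.98 at the last site and -2.41 at another. ZSCAN2 used an intronic site at 0% and 16.7% in the siCTRL libraries, 2% and 2.78% in the siSAM68 libraries and 8.93% and 2.26% in the siXRN2 libraries (limma adjusted p = 0.873 in siSAM68 and 0.828 in siXRN2). For ZSCAN2 the silenced libraries lay inside the control range. ZNF43, ZNF446 and ZNF498 rose in expression with no called site, and the first site of ZNF446 was at 62.5% and 50% in the siCTRL libraries, 79.5% and 76.3% in the siSAM68 libraries and 68.1% and 78.5% in the siXRN2 libraries (limma adjusted p = 0.0658 in siSAM68 and 0.115 in siXRN2).

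By type, the 70 middle sites held 22 of the 42 calls in siSAM68, 12 higher and 10 lower, which is 31.4% of them beside 15.1% of all 1555 middle sites (143 higher and 92 lower). Last sites of members changed by a median of -2.52 percentage points in siSAM68, and all 1235 last sites by 4.25. Intronic sites of type Ic changed by a median of 2.70 points over 34 member sites and -4.10 over all 606. In siXRN2 the medians for last sites were -1.46 over members and 2.90 over all. These are descriptions with no test, since sites of a gene share its reads. Sites at 0 in both siCTRL libraries, which were called more often, made up 16.5% of member sites and 7.75% of all sites. Without sites at 0 in all libraries of a group, limma called 0 of 140 member sites. The part of such zeros in the share of middle sites called was not tested.

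**Figure D4:**
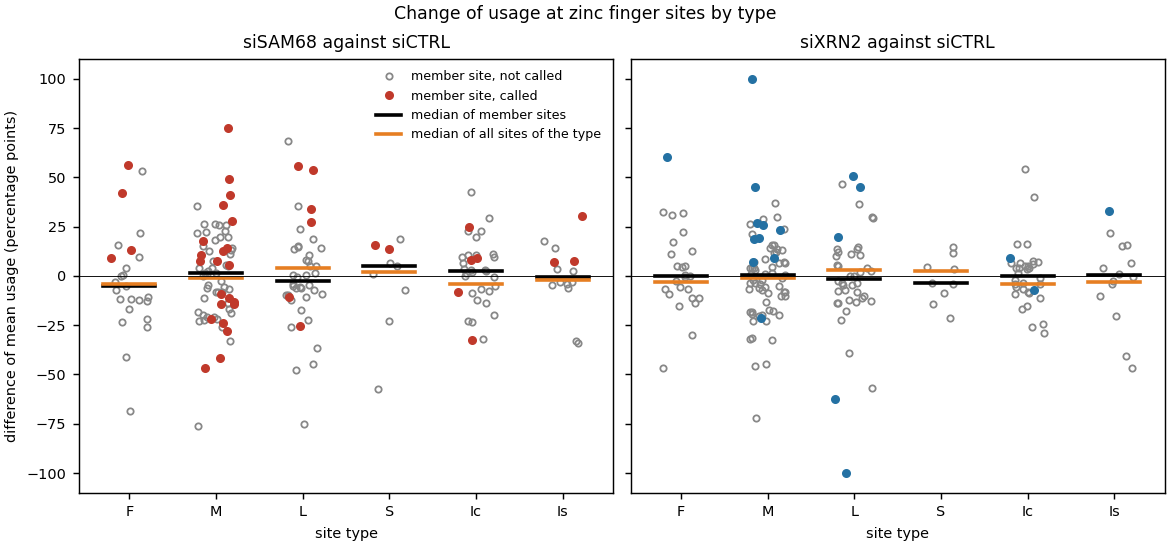
Difference of mean usage from siCTRL, in percentage points, for every tested member site by site type. Filled points are called by limma, black bars are medians of member sites and orange bars medians of all tested sites of the type. For last sites (L) in siSAM68 the black bar is at -2.52 and the orange bar at 4.25.

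Between siSAM68 and siXRN2 limma called 0 of 194 member sites, with 33 at an unadjusted p under 0.05, beside 0% of all 4864 sites, with 642 at that p. Groups did not overlap there for 92 member sites (52% of all sites).

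For genes with several 3' UTR sites, the most used pair gave a log2 ratio of distal to proximal usage, with 1% added to each. The 31 member pairs lay 47 to 8039 bases apart, with a median of 1351, beside 644.5 over all 1110 pairs. In siSAM68 limma called 16 pairs, 8 to the distal and 8 to the proximal site, beside 37.5% of all pairs (21.6% distal and 15.9% proximal). In siXRN2 it called 7, 3 distal and 4 proximal, beside 15.1% of all pairs (8.57% distal and 6.58% proximal). The median log2 shift was 1.10 over members and 0.50 over all pairs in siSAM68, and -0.12 and 0.39 in siXRN2. Groups did not overlap for 26 member pairs in siSAM68, 15 distal and 11 proximal (83.7% of all pairs, 46.1% distal and 37.6% proximal), and for 24 in siXRN2, 11 distal and 13 proximal (78.9% of all pairs, 44.3% distal and 34.6% proximal).

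Proximal shifts were led by genes already described. In siSAM68 the shifts of ZNF354B, ZNF224 and ZNF555 were -8.21, -7.49 and -7.16 (limma adjusted p = 0.00822, 0.0257 and 0.0184). In siXRN2 they were -13.32, -8.35 and -5.42 (limma adjusted p = 0.0039, 0.0263 and 0.0378). The ZNF354B value in siSAM68 is that of 1 library, and the other groups supply the spread of its test. All of these ratios hold libraries at 0, so their size depends on the added 1%.

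ZNF394, a SCAN and KRAB gene, used its proximal site at 22.2% and 12.5% in the siCTRL libraries, 60% and 56.5% in the siSAM68 libraries and 46.7% and 41.2% in the siXRN2 libraries. Its distal site, 5821 bases away, was at 33.3% and 37.5% in the siCTRL libraries, 0% and 4.35% in the siSAM68 libraries and 0% and 5.88% in the siXRN2 libraries. All silenced libraries were higher at the proximal and lower at the distal site, with siSAM68 called (limma adjusted p = 0.037 in siSAM68 and 0.0597 in siXRN2). ZNF253 used its proximal site at 0% in both siCTRL libraries, 1.89% and 6.12% in the siSAM68 libraries and 7.41% and 5.24% in the siXRN2 libraries and its distal site at 21.7% and 18.3% in the siCTRL libraries, 5.66% and 6.12% in the siSAM68 libraries and 11.1% and 12.6% in the siXRN2 libraries, with both called (limma adjusted p = 0.0219 in siSAM68 and 0.0317 in siXRN2).

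**Figure D5:**
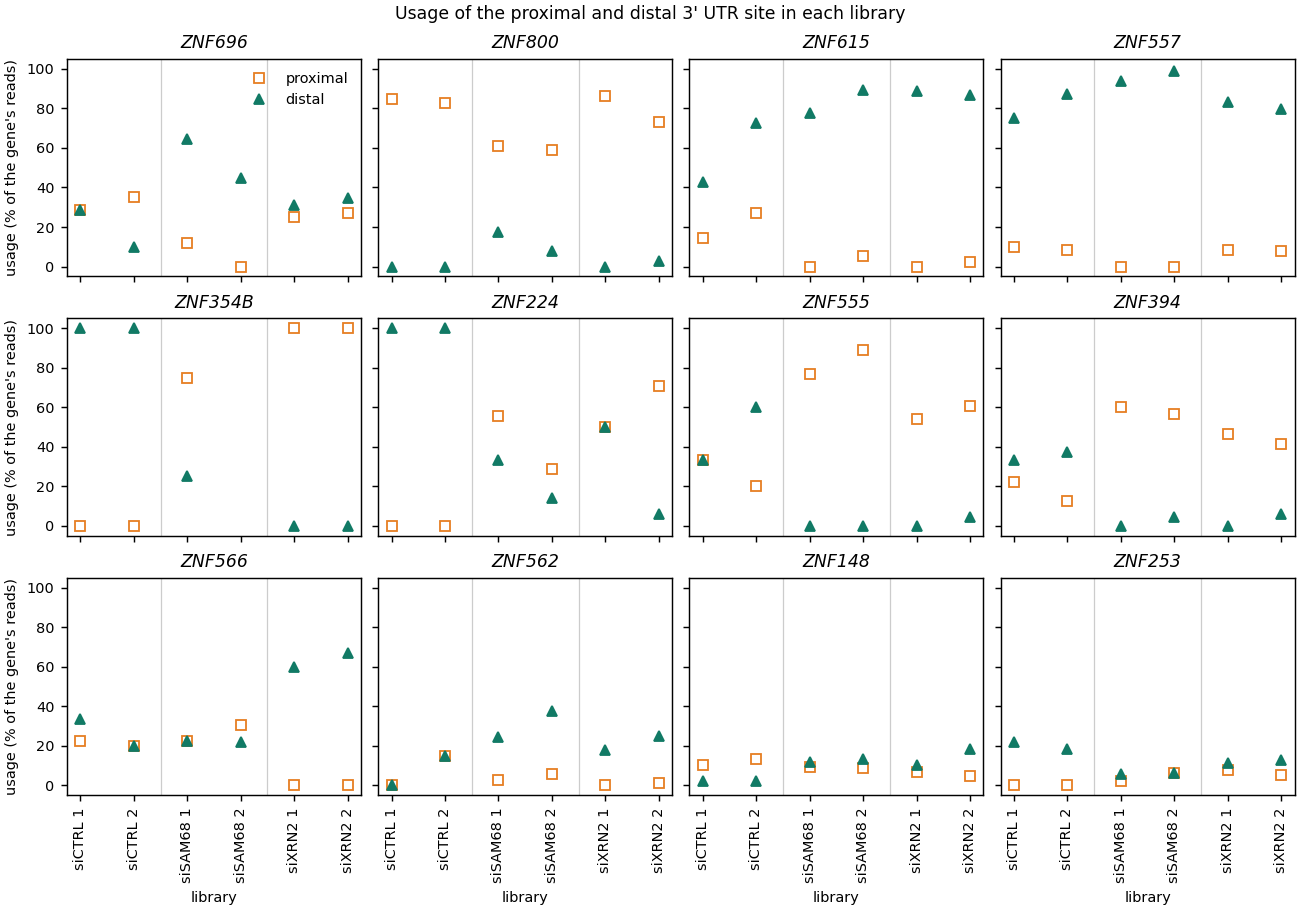
Usage of the proximal (open squares) and distal (filled triangles) 3' UTR site in each library, in percent of the gene's reads, for the 12 zinc finger genes that are among the 4 largest called shifts in a direction in at least 1 comparison. ZNF557 is at 0% at its proximal site in siSAM68 alone, and ZNF566 in siXRN2 alone.

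The only member pairs called between the silenced groups were ZNF557 and ZNF566, beside 0.361% of all 1109 pairs. ZNF557 used its proximal site at 10% and 8.51% in the siCTRL libraries, 0% in both siSAM68 libraries and 8.45% and 7.69% in the siXRN2 libraries and its distal site at 75% and 87.2% in the siCTRL libraries, 93.8% and 98.8% in the siSAM68 libraries and 83.1% and 79.5% in the siXRN2 libraries. The shift was 3.60 in siSAM68 (limma adjusted p = 0.0102), 0.18 in siXRN2 (limma adjusted p = 0.653) and 3.42 between the silenced groups (limma adjusted p = 0.0469). ZNF566 used its distal site at 33.3% and 20% in the siCTRL libraries, 22.2% and 21.7% in the siSAM68 libraries and 60% and 66.7% in the siXRN2 libraries, opposite the middle site given above. Its shift was -0.52 in siSAM68 (limma adjusted p = 0.271), 5.72 in siXRN2 (limma adjusted p = 0.00556) and -6.24 between the silenced groups (limma adjusted p = 0.0221). Both calls between the silenced groups were lost when any 1 library was left out, with 0 member pairs called and 7 to 12 at an unadjusted p under 0.05.

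ZNF148 and ZNF562 shifted distally in both comparisons. ZNF148, which binds GC-rich promoters, used its proximal site at 10% and 13.3% in the siCTRL libraries, 9.17% and 8.59% in the siSAM68 libraries and 6.49% and 4.52% in the siXRN2 libraries. Its distal site, 181 bases away, was at 2% and 2.22% in the siCTRL libraries, 11.9% and 13.3% in the siSAM68 libraries and 10.4% and 18.1% in the siXRN2 libraries. No library was at 0, the distal site did not overlap the controls, and both shifts were called (limma adjusted p = 0.0307 in siSAM68 and 0.0319 in siXRN2). ZNF562 used its proximal site at 0% and 14.8% in the siCTRL libraries, 2.70% and 5.66% in the siSAM68 libraries and 0% and 1.08% in the siXRN2 libraries. Its distal site was at 0% and 14.8% in the siCTRL libraries, 24.3% and 37.7% in the siSAM68 libraries and 17.9% and 24.7% in the siXRN2 libraries (limma adjusted p = 0.0202 in siSAM68 and 0.011 in siXRN2 for the ratio). In siCTRL replicate 1 both sites were at 0, so the added 1% alone sets that library's ratio.

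The other 6 distal shifts called in siSAM68 were not called in siXRN2, those of ZNF557 and ZNF202, described above, of ZNF780A, and of ZNF696, ZNF800 and ZNF615. Not all of them were small in siXRN2. The log2 shift in siSAM68 and siXRN2 was 3.62 and 4.18 for ZNF615 and 2.89 and 2.44 for ZNF202. It was 4.80 and 1.18 for ZNF696 and 3.60 and 0.18 for ZNF557. The siXRN2 shift of ZNF202 was close to the threshold (limma adjusted p = 0.0527). Of the 6, only ZNF557 was called between the silenced groups. ZNF696 used its distal site at 28.6% and 10% in the siCTRL libraries, 64.7% and 45% in the siSAM68 libraries and 31.2% and 34.5% in the siXRN2 libraries (limma adjusted p = 0.0393 in siSAM68 and 0.432 in siXRN2). ZNF800 used its distal site, 47 bases past the site that lost usage, at 0% in both siCTRL libraries, 17.4% and 7.69% in the siSAM68 libraries and 0% and 2.82% in the siXRN2 libraries (limma adjusted p = 0.0307 in siSAM68 and 0.33 in siXRN2). ZNF615 used its distal site at 42.9% and 72.7% in the siCTRL libraries, 77.8% and 89.5% in the siSAM68 libraries and 88.9% and 86.7% in the siXRN2 libraries (limma adjusted p = 0.0464 in siSAM68 and 0.0545 in siXRN2). The siSAM68 libraries of ZNF696, ZNF800 and ZNF615 were above both controls at the distal site.

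Site and pair calls were also lost when 1 library was left out, with the same limit as for expression. The counts are of members alone, with no share over all sites or pairs. No called site or pair passed in all 6 fits that each left out a library. The ZNF354B pair in siSAM68 was called in each such fit that gave it a value, and without siSAM68 replicate 1 it has none. Without siSAM68 replicate 1 or 2, limma called 0 member sites in siSAM68, with 80 and 73 at an unadjusted p under 0.05, and it called 16 without siCTRL replicate 1, 25 without siXRN2 replicate 1 and 25 without siXRN2 replicate 2. In siXRN2 it called 0 without siSAM68 replicate 2, siXRN2 replicate 1 or siXRN2 replicate 2, with 75, 60 and 57 at that p, 8 without siSAM68 replicate 1 and 11 without siCTRL replicate 1. Member pairs in siSAM68 numbered 4 without siCTRL replicate 1, 0 without siSAM68 replicate 1, with 16 at that p, and 2 without siSAM68 replicate 2. In siXRN2 they numbered 2 without siCTRL replicate 1, 1 without siXRN2 replicate 1, and 4 without siXRN2 replicate 2, siSAM68 replicate 1 or siSAM68 replicate 2.

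Of 26 partners and corepressors of KRAB proteins, 4 had expression values. HDAC1, a histone deacetylase, was at 87.7 and 138 in the siCTRL libraries, 219 and 214 in the siSAM68 libraries and 186 and 241 in the siXRN2 libraries and rose in both (limma adjusted p = 0.00631 in siSAM68 and 0.013 in siXRN2). MPHOSPH8, of the HUSH silencing complex, rose in siSAM68 (limma adjusted p = 0.00753) and the histone methyltransferase EHMT2 fell there (limma adjusted p = 0.0151), while HDAC2 fell in siXRN2 (limma adjusted p = 0.0457). TRIM28 used its first site at 85.7% and 89.3% in the siCTRL libraries, 91.3% and 94.7% in the siSAM68 libraries and 95.2% and 92.9% in the siXRN2 libraries (limma adjusted p = 0.169 in siSAM68 and 0.152 in siXRN2). Of 11 tested corepressor sites 1 was called in each comparison, beside 14.6% of all sites in siSAM68 and 5.19% in siXRN2, an exonic site of the remodeller CHD4 at 0% in both siCTRL libraries, 6.90% and 5.66% in the siSAM68 libraries and 10.9% and 28.9% in the siXRN2 libraries.

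Among 18 tested genes with other zinc finger names, 7 were called in siSAM68 (2 higher and 5 lower) and 6 in siXRN2 (2 higher and 4 lower), beside 58.8% and 33.3% of all genes, with median log2 differences of -0.07 and -0.33. PATZ1 and ZBTB5 were higher in both. ZFP1, ZFP41, ZBTB26, ZBTB44 and ZBTB45 were lower in siSAM68, and GLI3, ZBTB16, ZBTB26 and ZFP36L2 in siXRN2. Of their 28 sites, 4 were called in siSAM68 and 2 in siXRN2, beside 14.6% and 5.19% of all sites, among them the last site of IKZF2 in both, at 25% in both siCTRL libraries, 75% and 67.9% in the siSAM68 libraries and 71.4% and 52.9% in the siXRN2 libraries. The others were sites of ZBTB5, ZBTB38 and ZBTB40.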

How the data were processed

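The submitters' processing notes name cutadapt, Bowtie2 and the build hg19, with no versions. Per the file headers, the authors deposited RPM per library for genes and usage in percent for sites. The authors also deposited a signed score, undefined in the sources used here. Its size reached 1.3 in either comparison at 76.1% of member sites and 81.1% of all sites in the authors' deposited table, so the lists are selected and adjusted p-values can be too small. Deposited RPM grows with library depth inside a group, so each library was rescaled to its group's listed total. The plan allowed for counts, but no count test was run.

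Tests used log2(RPM + 1) where the mean reached 1 RPM, log2(percent + 1) where it reached 1%, and the log2 ratio for pairs. Folds on this scale understate low genes. One limma fit (limma 3.58.1, R 4.3.3) held all 3 groups, with Benjamini-Hochberg adjustment over the whole table and a threshold of 0.05. With 2 against 2 libraries an exact two-sided permutation test cannot go below 0.333. Missing values were left out of a site's fit. The fits were also run on simulated normal values with no groups set at 0. That run does not cover calls that rest on sites at 0. Alternatives changed scaling, added constant, filter, variance trend, groups in the fit, replicate block and single libraries.

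Members and lists were chosen with earlier results of these data known. Named were, per comparison, the 6 called members or sites with the largest change each way, the 4 such pairs, called members with both expression and site values, all ZSCAN members and called genes of the other lists. ZNF511, ZNF627, ZNF131, ZNF613, ZNF208, ZNF24, ZNF449, ZNF780A, ZNF10, ZNF304, ZNF620, ZNF610 and TRIM28 were named after their values were seen. Transcripts were matched to GENCODE v29 by RefSeq identifier (144 members) or symbol (8). Figures used matplotlib 3.10.9.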

Additional observations from a re-analysis of the deposited data

How the results depend on the processing

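No call that the naming rule selected changed direction under any alternative run. Named results that were not called are not covered by that count. Expression calls of members stayed at 13 to 15 in siSAM68 and 7 to 10 in siXRN2 under median-of-ratios scaling, 5 added, other filters, no variance trend or only the 2 groups compared, and were 0 and 0 with no rescaling. Median-of-ratios scaling moved the median log2 difference of all genes from 0.16 to 0.00272 in siSAM68. Same-numbered libraries deviated together with correlations of 0.0023 to 0.181. The deposited labels give these libraries a shared tag across the groups. Weak correlations cannot decide whether they come from the same silencing round. With the replicate block, calls in siSAM68 and siXRN2 were 15 and 9 for expression, 7 and 0 for sites and 11 and 8 for pairs, and 0 pairs between the silenced groups. Leaving out each library gave 6 to 16, 4 to 9 and 0 to 1 expression calls in siSAM68, siXRN2 and between the silenced groups, 0 to 38, 0 to 24 and 0 to 0 site calls, and 0 to 12, 1 to 6 and 0 to 0 pair calls. Site calls in siSAM68 were 27 at a mean usage of at least 5% and 24 with only the 2 groups compared. In siXRN2 they were 0 with only the 2 groups and 3 with no log, and between the silenced groups 6 with no variance trend. Pair calls in siXRN2 were 16 with 5% added and 4 with only the 2 groups, and between the silenced groups 1 and 0. Leaving out sites at 0 in all libraries of a group, chosen after seeing the data, gave 0 and 0 site calls and 8, 0 and 0 pair calls. Counts of calls under the alternatives are of members alone, with no share over all genes, sites or pairs. They do not show whether members differ from the rest. The cause of these differences was not tested. Depth limits genes with few control reads.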

Other observations

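Some members outside the naming rule were called at several sites or in 1 group. ZNF620 used a middle site at 0% in both siCTRL libraries, 22.7% and 33.3% in the siSAM68 libraries and 29.4% and 22.6% in the siXRN2 libraries (limma adjusted p = 0.0091 in siSAM68 and 0.0124 in siXRN2), and a second middle site of it was called in siSAM68 (limma adjusted p = 0.0492). ZNF304 used its first site at 85.7% and 84.3% in the siCTRL libraries, 100% and 96.6% in the siSAM68 libraries and 97.9% and 97.8% in the siXRN2 libraries, with siSAM68 called (limma adjusted p = 0.0375 in siSAM68 and 0.0522 in siXRN2). ZNF610 used a middle site at 0% in both siCTRL libraries, 0% in both siSAM68 libraries and 30.8% and 15.4% in the siXRN2 libraries, with siXRN2 called (limma adjusted p = 0.0297). ZNF10, the source of a KRAB domain widely used as a repressor module, used its proximal site at 0% and 5.56% in the siCTRL libraries, 38.5% and 12.5% in the siSAM68 libraries and 19.1% and 14.7% in the siXRN2 libraries, and its distal site at 0% and 16.7% in the siCTRL libraries, 0% in both siSAM68 libraries and 4.76% and 4.41% in the siXRN2 libraries. Its shift to the proximal site was called in siSAM68 (log2 -5.24, limma adjusted p = 0.0229). Both sites were at 0 in siCTRL replicate 1 and the distal site in both siSAM68 libraries, so the size of the shift depends on the added 1%.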
